A study of Mus musculus with 6 samples.

Results

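Collagens form the fibrils, networks and filaments of the extracellular matrix. Collagen chains and the proteins that modify them were examined in GC-2spd cells, a mouse line derived from spermatocytes, after exposure to fine particulate matter (PM2.5). The members were chosen by symbol. They were every gene named Col, number, a, number, together with the prolyl 4-hydroxylases (P4ha1 to P4ha3), the lysyl hydroxylases (Plod1 to Plod3), the chaperone Serpinh1, the lysyl oxidases (Lox, Loxl1 to Loxl4), the procollagen proteinase Bmp1 and its enhancer Pcolce. This gave 58 genes of the 54886 listed, of which 44 encode collagen chains and 14 encode enzymes or helpers. The family was picked because its levels were known to differ between these groups, so its counts are a description of that contrast and not independent evidence for it.

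RNA was sequenced from 3 control libraries, labelled untreated and kept in normal medium, and from 3 libraries exposed for 48 h to PM2.5, given at 100 μg/mL. The paper's cell culture methods name PBS besides normal medium for the control group. The strain background of all 6 libraries is BALB/c, no genetic change separates the groups, and all cells come from 1 immortalised line. The authors deposited FPKM, in which the fragments on a gene are scaled by gene length and library size, so that levels can be compared between genes. The labels do not say whether replicates were separate cultures, so the p-values measure the spread between these libraries, which may be technical.

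A collagen molecule is a triple helix of 3 chains. In the endoplasmic reticulum, prolyl 4-hydroxylases stabilise the helix, lysyl hydroxylases prepare lysines for cross-linking, and Serpinh1 (HSP47) holds the folded procollagen on its way out. Outside the cell, Bmp1 cuts off the C-terminal propeptide of fibrillar procollagens, Pcolce speeds that step, and lysyl oxidases start the cross-links. Fibrillar types I, III and V build fibrils, type IV builds the network of basement membranes, and type VI builds beaded filaments around cells. In the testis, basement membranes and the peritubular wall hold most of the collagen, while germ cells are not known as a main source of fibrillar chains.

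The libraries held 16209346 to 18003197 recovered reads. Control replicate 2 stood apart from the others. Mitochondrial genes took 14.5% of its reads against 1.65% to 1.95% in the other 5 libraries, and its log2(FPKM + 1) correlated with control replicates 1 and 3 at r = 0.742 and r = 0.745, while those correlated at r = 0.992. PM2.5 replicate 3 stood apart to a smaller degree, with r = 0.950 and r = 0.958 against PM2.5 replicates 1 and 2, which correlated at r = 0.991. Fold changes are therefore given with all 6 libraries and without control replicate 2, and the plot of lists shows the latter. The markers did not match a spermatocyte. Of 15 spermatocyte markers, 0 reached a mean FPKM of 1, 6 were listed at 0 in every library, and Sycp3, a protein of the meiotic chromosome axis, had the highest mean at 0.667. Sycp3 had 2.56 in control replicate 2 and 0 to 0.438 in the other libraries. Of 11 fibroblast or mesenchymal markers, 7 reached a mean FPKM of 1, led by the intermediate filament Vim (356) and fibronectin Fn1 (129). The matrix proteoglycans Lum, listed at 0, and Dcn (0.0618) and the surface protein Thy1 (0.0043) did not. Of 5 peritubular or smooth muscle markers, 1 reached it, the actin Acta2 (58.3), while Tagln (0.252) and Myh11 (0.0505) were among those that did not. Of 6 Sertoli markers, 1 reached it (Gata4, 17.2), as did 1 of 6 Leydig markers (Star, 1.86). No epithelial marker of 5 and no endothelial marker of 4 reached a mean FPKM of 1.

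Of the 58 members, 31 passed the filter on a mean FPKM of 1 over the 6 libraries, 17 chains and all 14 enzymes and helpers. Serpinh1 had the highest mean FPKM of the family at 711, followed by the type I chains Col1a1 at 392 and Col1a2 at 164, Pcolce at 144 and the type VI chain Col6a1 at 136. The other 26 members above the filter had mean FPKM between 95.1 (Col5a2) and 3.88 (Col18a1). These means include control replicate 2, in which Pcolce had 458 against 72.3 to 89.3 in the other libraries. In the plot of FPKM by library, the 2 groups of a gene lie within a narrow band for most members, and control replicate 2 lies off it for several, with Col12a1 and Col8a1 far below and Pcolce, Serpinh1 and Loxl3 above.

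**Figure D1:**
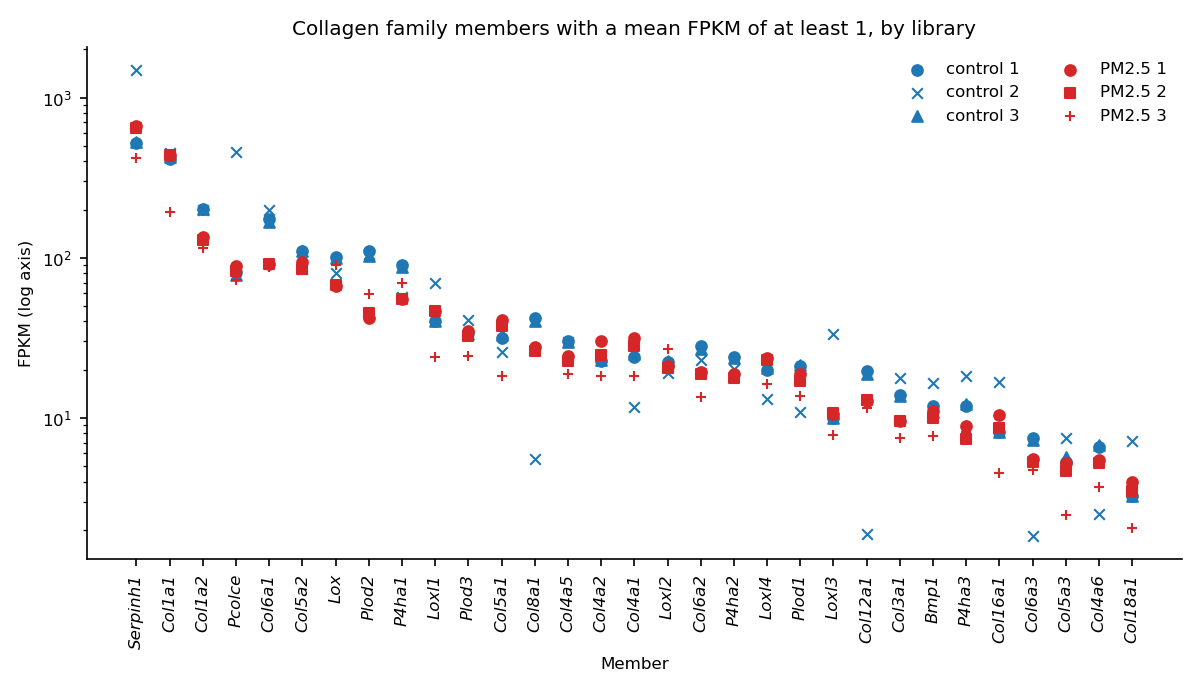
FPKM (log axis) of the 31 members above the filter, ordered by their mean, with 1 mark for each of the 3 control (blue) and 3 PM2.5 (red) libraries. Col6a1, Col1a2 and Plod2 are lower in every PM2.5 library than in every control, and the crosses of control replicate 2 leave the other controls at Col12a1, Col8a1, Pcolce and Serpinh1.

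The summed level of the chain transcripts was lower in the PM2.5 libraries. The FPKM of the 44 chains summed to 1145, 1117 and 1149 in the controls and to 985, 953 and 637 in PM2.5 replicates 1, 2 and 3, so the groups did not overlap. As a share of recovered reads, however, the chains took 0.940%, 0.684% and 0.942% in the controls and 0.811%, 0.771% and 0.537% in the PM2.5 libraries, and control replicate 2 lay below PM2.5 replicates 1 and 2. The summed FPKM of the 14 enzymes and helpers overlapped as well, at 1098, 2424 and 1091 in the controls and 1112, 1085 and 860.1 in the PM2.5 libraries. In these bulk samples, fewer cells with these transcripts and less RNA in each cell cannot be told apart. Summed FPKM of the fibroblast or mesenchymal list ran from 533 to 816 in the controls and from 467 to 523 in the PM2.5 libraries. Its genes did not move together. Vim had 254, 698 and 262 in the controls and 291, 288 and 343 in the PM2.5 libraries, and Fn1 had 192, 39.8 and 186 against 124, 125 and 107. The part of these markers in the collagen result was not tested.

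With all 6 libraries, limma on log2(FPKM + 1) called 0 of the 31 tested members at a Benjamini-Hochberg adjusted p under 0.05, where 0.0926% of all 11884 genes tested were called. At an unadjusted p under 0.05, 6 members were lower and 0 higher, against 1.88% and 1.92% of all genes. The voom test on recovered reads also called 0 members and 0% of all genes. In FPKM the groups did not overlap for 9 members, all of them lower after PM2.5, where 6.85% of all genes were lower in this way and 8.35% higher. A recovered read counted for more in control replicate 2 (0.0771 FPKM times kb) than in the other libraries (0.0539 to 0.0564). That library held 2493 Col6a2, 2581 Col4a5 and 1625 P4ha2 reads, of 16209346, against 2864, 2927 and 2082 of 17000293 in PM2.5 replicate 1. As a share of reads these genes, and Col5a3, overlapped between the groups. Without control replicate 2, limma called 1 member, Col6a1, where 0.993% of all genes were called. At an unadjusted p under 0.05, 14 members were lower and 0 higher, against 7.63% and 8.23% of all genes. The groups did not overlap for 17 members, again all lower, where 19.6% of all genes were lower in this way and 17.7% higher.

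The median log2 fold change of the 31 tested members was -0.36 with all libraries and -0.36 without control replicate 2, beside 0.02 and -0.01 for all genes tested. Of the 31, 23 had a negative log2 fold change with all libraries (48.1% of all genes did) and 25 without control replicate 2 (52.0%). In 21 members the sign was negative in both fits and in 4 it was positive in both (Col4a2, and Col4a1, Loxl2 and Loxl4, which turned negative without control replicate 2 when libraries were scaled to equal FPKM totals). Serpinh1 and Pcolce turned from negative to positive when control replicate 2 was left out, although Pcolce stayed negative there under quantile normalization and equal FPKM totals, and Col5a1, Col6a3, Col8a1 and Col12a1 turned from positive to negative. Under the other scalings (quantile normalization, equal FPKM totals and voom), 19 to 22 of the 31 were negative with all libraries and 25 to 29 without control replicate 2. With equal FPKM totals and all libraries the median of all genes was itself 0.26, and 23 of the 31 members lay below it. The plot of fitted changes shows the difference in error as well: the standard error of Col12a1 was 0.781 with control replicate 2 and 0.0937 without it, and that of Col6a1 was 0.209 and 0.0868.

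**Figure D2:**
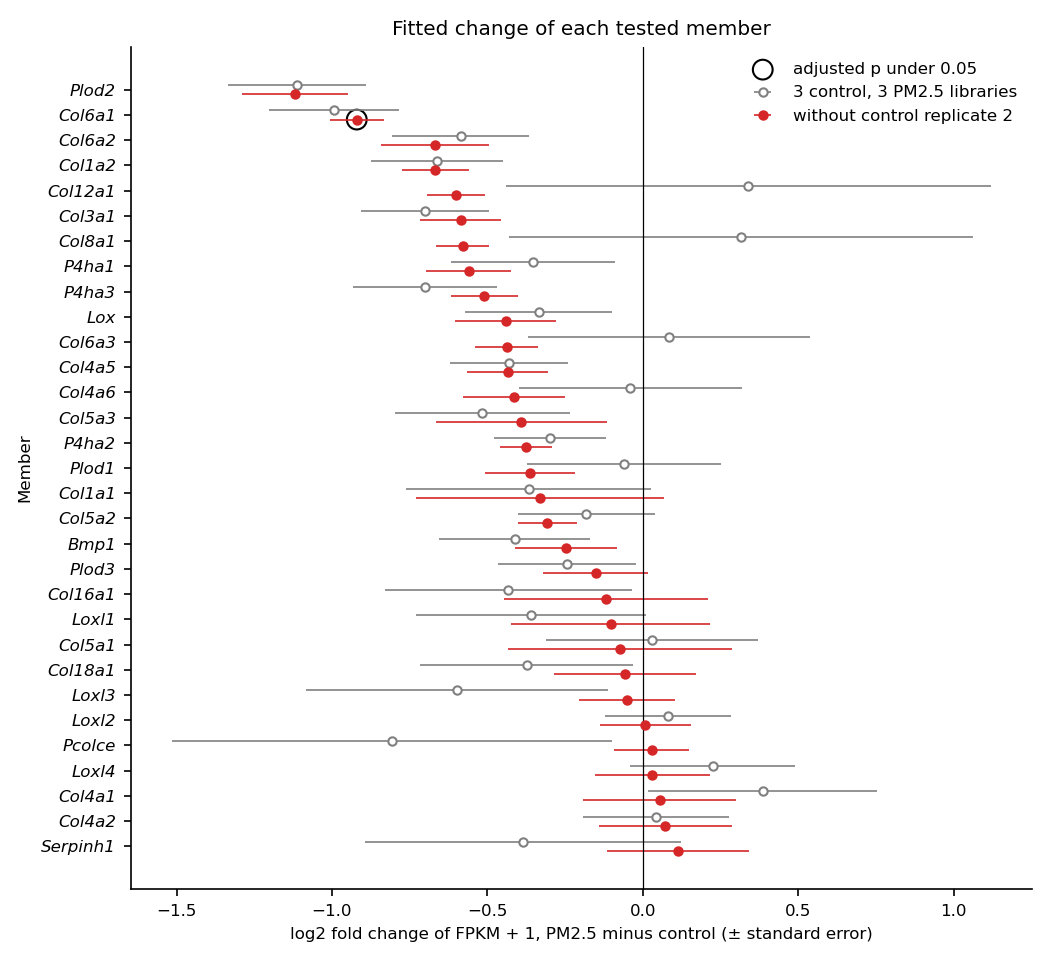
Fitted log2 fold change of FPKM + 1 (PM2.5 minus control) with its standard error for the 31 tested members, with all 6 libraries (open grey) and without control replicate 2 (filled red), where a ring marks an adjusted p under 0.05. Plod2 (-1.12) and Col6a1 (-0.92) lie lowest without control replicate 2, and Col12a1 and Col8a1 change sign between the fits.

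The fibrillar chains were led by type I. Col1a2, the second chain of type I collagen (chromosome 6, 4504814 to 4541544, plus strand, GRCm38), had FPKM of 202, 199 and 201 in the controls and 135, 129.9 and 115 in the PM2.5 libraries. The groups did not overlap, and the control mean of 201 ± 1.55 (SD, n = 3) stood against 127 ± 10.1 (SD, n = 3). The log2 fold change was -0.66 (SE 0.213, limma adjusted p = 0.875), and -0.67 (SE 0.107, limma adjusted p = 0.0802) without control replicate 2, so it did not pass the test in either fit. A transcript of unknown function, Gm43921, overlaps Col1a2 on the same strand.

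Col1a1, the first chain of the same molecule, was split within the PM2.5 group. Its FPKM were 412, 452 and 425 in the controls and 435, 437 and 193 in PM2.5 replicates 1, 2 and 3. PM2.5 replicate 3 lay below every other library, and the other 5 lay within one range. The log2 fold change was -0.37 (SE 0.394, limma adjusted p = 0.875), and -0.33 without control replicate 2 (SE 0.398, limma adjusted p = 0.721). The ratio of Col1a1 to Col1a2 in FPKM was 2.04, 2.27 and 2.12 in the controls, 3.23 and 3.37 in PM2.5 replicates 1 and 2, and 1.67 in PM2.5 replicate 3, so the PM2.5 libraries lay on both sides of the controls.

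Col3a1, the chain of type III collagen found with type I in elastic tissues, had FPKM of 14.0, 17.8 and 13.6 in the controls and 9.58, 9.61 and 7.52 in the PM2.5 libraries, without overlap. Its log2 fold change was -0.70 (SE 0.207, limma adjusted p = 0.875), and -0.59 without control replicate 2 (SE 0.132, limma adjusted p = 0.144). Type V chains regulate the diameter of type I fibrils. Col5a2, which lies tail to tail with Col3a1 on chromosome 1 at a distance of 24614 bases, had FPKM of 109.6, 84.5 and 110.4 against 94.4, 84.8 and 87.1, and control replicate 2 was the lowest library. Its log2 fold change was -0.18 with all libraries and -0.31 without control replicate 2. Col5a1 had 31.4, 25.8 and 32.8 against 41.0, 37.3 and 18.4, with PM2.5 replicates 1 and 2 above and PM2.5 replicate 3 below every control, and log2 fold changes of 0.03 and -0.07. Col5a3 had 5.32, 7.44 and 5.69 against 5.26, 4.63 and 2.46, just without overlap in FPKM. Its log2 fold change was -0.52 with all libraries (limma adjusted p = 0.875) and -0.39 without control replicate 2 (SE 0.275, limma adjusted p = 0.536).

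The type VI chains gave the family's called gene. Col6a1 encodes the first of the chains of the beaded filament and lies on chromosome 10 (76708792 to 76726168, minus strand, GRCm38). It had FPKM of 175, 199.6 and 168 in the controls and 91.3, 91.2 and 88.1 in the PM2.5 libraries. All 3 PM2.5 libraries were far below the lowest control, and PM2.5 replicate 3 lay close to the other exposed libraries. The mean was 181 ± 16.6 against 90.2 ± 1.84 (SD, n = 3 each), a ratio of 0.498. The log2 fold change was -0.99 with all libraries (SE 0.209, limma adjusted p = 0.479), and without control replicate 2 Col6a1 fell by 0.92 on the log2 scale (SE 0.0868, limma adjusted p = 0.0216). The call did not hold when any one of control replicate 1, control replicate 3, PM2.5 replicate 1 or PM2.5 replicate 2 was also left out (limma adjusted p between 0.125 and 0.491), and it held without PM2.5 replicate 3 (0.00038).

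Col6a2, the partner chain 85161 bases away on the same strand, had FPKM of 28.3, 23.1 and 27.0 in the controls and 19.3, 18.9 and 13.5 in the PM2.5 libraries. The groups did not overlap in FPKM, with a log2 fold change of -0.59 with all libraries (limma adjusted p = 0.875) and -0.67 without control replicate 2 (SE 0.175, limma adjusted p = 0.186). Col6a3, the long chain that completes the molecule, had 7.51, 1.82 and 7.26 against 5.55, 5.33 and 4.71. Here control replicate 2 was the lowest library, and the log2 fold change was 0.08 with it and -0.44 without it (SE 0.102, limma adjusted p = 0.151). Col6a1 exceeded Col6a2 in FPKM by a ratio of 6.20, 8.65 and 6.22 in the controls and 4.74, 4.83 and 6.51 in PM2.5 replicates 1, 2 and 3. That ratio overlapped between the groups.

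**Figure D3:**
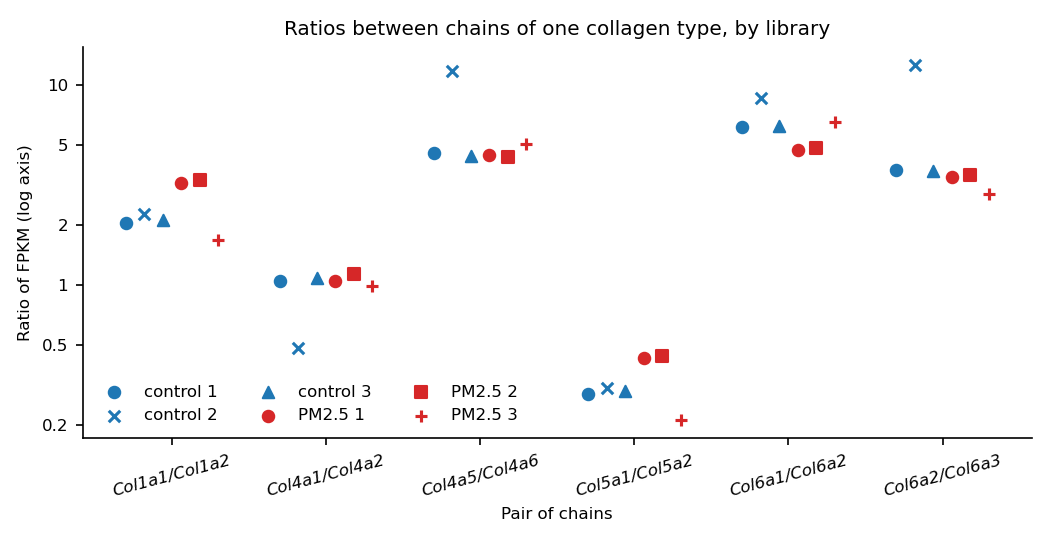
Ratio of the FPKM of 2 chains of one collagen type (log axis) in each control (blue) and PM2.5 (red) library. Col1a1/Col1a2 is 3.23 and 3.37 in PM2.5 replicates 1 and 2 but 1.67 in PM2.5 replicate 3, and control replicate 2 leaves the other controls at Col4a1/Col4a2, Col4a5/Col4a6 and Col6a2/Col6a3.

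The type IV chains lie as head-to-head pairs. Col4a1 and Col4a2, the chains of most basement membranes, share 22 bases at their starts on chromosome 8. Outside control replicate 2 their FPKM were near equal. The ratio of Col4a1 to Col4a2 was 1.05 and 1.09 in control replicates 1 and 3 and 1.05, 1.13 and 0.990 in the PM2.5 libraries. In control replicate 2 the ratio was 0.483. Col4a1 had FPKM of 23.8, 11.7 and 24.9 in the controls and 31.6, 28.2 and 18.2 in the PM2.5 libraries, and the groups overlapped. Its log2 fold change was 0.39 with all libraries and 0.05 without control replicate 2 (limma adjusted p = 0.875 and 0.930). Col4a2 had 22.7, 24.3 and 22.9 against 30.2, 24.9 and 18.4, and its log2 fold changes were 0.04 and 0.07. Both genes were highest in PM2.5 replicate 1 and low in PM2.5 replicate 3.

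Col4a5 and Col4a6, the X-linked pair whose starts lie 1308 bases apart, had lower values after PM2.5 when control replicate 2 was left out. Col4a5 had FPKM of 30.1, 29.6 and 29.8 in the controls and 24.4, 22.7 and 18.9 in the PM2.5 libraries, without overlap in FPKM. Its log2 fold change was -0.43 in both fits, with a limma adjusted p of 0.875 and, without control replicate 2, 0.230. Col4a6 had 6.56, 2.51 and 6.75 against 5.48, 5.20 and 3.72, so control replicate 2 was below every PM2.5 library, and its log2 fold change was -0.04 with that library and -0.41 without it.

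Col8a1, a short chain of the type VIII network, and Col12a1, which coats type I fibrils, were the chains that control replicate 2 moved most. Col8a1 had FPKM of 41.9, 5.53 and 40.4 in the controls and 27.7, 26.1 and 27.7 in the PM2.5 libraries. Col12a1 had 19.7, 1.87 and 18.8 against 12.7, 12.9 and 11.5. In both genes the PM2.5 libraries lay in a narrow range below control replicates 1 and 3 and above control replicate 2. Without control replicate 2 the log2 fold changes were -0.58 (SE 0.0861) and -0.60 (SE 0.0937), with limma adjusted p of 0.0652 and 0.0770, where with it they were 0.32 and 0.34.

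The remaining chains above the filter gave no difference larger than the spread between replicates. Col16a1, a fibril-associated chain, had FPKM of 8.20, 16.6 and 8.17 in the controls and 10.4, 8.63 and 4.49 in the PM2.5 libraries. Col18a1, the source of endostatin and the member just above the filter, had 3.27, 7.21 and 3.25 against 3.96, 3.52 and 2.06. In both the groups overlapped, and the limma adjusted p was 0.875 with all libraries. The log2 fold changes were -0.43 and -0.37 with all libraries and -0.12 and -0.06 without control replicate 2. Col7a1, the anchoring fibril chain just below the filter with a mean FPKM of 0.988, had 0.644, 3.06 and 0.523 against 0.789, 0.460 and 0.452 and was not tested.

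Among the enzymes and helpers, the hydroxylases had the lowest list medians without control replicate 2, at -0.51 for the prolyl and -0.36 for the lysyl hydroxylases. With all libraries they were -0.35 and -0.24, and those of the procollagen proteins (-0.61) and the chaperone (-0.39) were lower. Plod2, the lysyl hydroxylase that acts on the telopeptides of fibrillar collagen, lies on chromosome 9 (92542223 to 92608428, plus strand, GRCm38). It had FPKM of 111, 105 and 102 in the controls and 42.0, 45.5 and 59.4 in the PM2.5 libraries. The highest PM2.5 library, replicate 3, was well under the lowest control. The mean was 106 ± 4.16 against 49.0 ± 9.19 (SD, n = 3 each), a ratio of 0.462. The log2 fold change was -1.11 (SE 0.221, limma adjusted p = 0.406), and -1.12 without control replicate 2 (SE 0.171, limma adjusted p = 0.0747). It therefore missed the threshold in both fits, although voom on the recovered reads without control replicate 2 gave an adjusted p of 0.0477, in a fit that called 1.27% of all genes. A transcript on the opposite strand, Gm38391, overlaps Plod2, and reads of the 2 strands cannot be told apart if counting ignored strand.

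Plod1, which hydroxylates lysines of the helix, had FPKM of 21.1, 10.9 and 21.5 against 18.7, 17.0 and 13.8, with control replicate 2 the lowest library and log2 fold changes of -0.06 with it and -0.36 without it. Plod3, which also adds glucose to hydroxylysine, had 33.9, 41.0 and 33.5 against 34.7, 32.5 and 24.5. The groups overlapped in Plod3, and its log2 fold change was -0.24 with all libraries and, without control replicate 2, -0.15 (SE 0.168, limma adjusted p = 0.694).

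The prolyl 4-hydroxylase genes encode the catalytic subunits of the enzyme. P4ha1 had FPKM of 90.2, 57.2 and 86.9 in the controls and 55.2, 55.2 and 69.8 in the PM2.5 libraries. P4ha2 had 23.9, 20.1 and 23.6 against 18.7, 17.8 and 17.8, and P4ha3 had 11.9, 18.4 and 12.2 against 8.94, 7.39 and 8.15. In FPKM the groups did not overlap in P4ha2 and P4ha3, and in P4ha1 control replicate 2 lay between the PM2.5 libraries. With all libraries the log2 fold changes were -0.35, -0.30 and -0.70 for P4ha1, P4ha2 and P4ha3 (limma adjusted p = 0.875 each). Without control replicate 2 the log2 fold changes were -0.56 (SE 0.137) for P4ha1, -0.38 (SE 0.0832) for P4ha2 and -0.51 (SE 0.108) for P4ha3. Their limma adjusted p were 0.167, 0.138 and 0.129, so 0 of the 3 passed the test in either fit.

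The sequences upstream of the 3 prolyl 4-hydroxylases and of 3 fibrillar or type VI chains are shown, all with lower values in every PM2.5 library than in control replicates 1 and 3. They were looked at since hydroxylase genes such as P4ha1 are known targets of the hypoxia-inducible factor (HIF) and constituents of particulate matter are known ligands of the aryl hydrocarbon receptor (AhR). Both factors pair with ARNT. Capitals mark GCGTG, a core bound by AhR with ARNT, or ACGTG, a core bound by HIF with ARNT. Matches were taken on either strand, so that CACGC and CACGT are marked too. The letters alone do not assign a GCGTG match to AhR rather than HIF. The windows are the 250 bases before the RefSeq start on GRCm38.p6, read 5′ to 3′ on the strand of the gene, for members whose window touches no exon of GENCODE M21.
P4ha1 (chr10:59323046-59323295, plus strand): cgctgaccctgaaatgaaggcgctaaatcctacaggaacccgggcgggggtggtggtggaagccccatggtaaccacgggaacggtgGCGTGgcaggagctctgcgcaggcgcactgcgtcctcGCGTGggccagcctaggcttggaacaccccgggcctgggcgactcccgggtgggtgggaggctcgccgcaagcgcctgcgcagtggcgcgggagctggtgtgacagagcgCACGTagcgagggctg
P4ha2 (chr11:54100674-54100923, plus strand): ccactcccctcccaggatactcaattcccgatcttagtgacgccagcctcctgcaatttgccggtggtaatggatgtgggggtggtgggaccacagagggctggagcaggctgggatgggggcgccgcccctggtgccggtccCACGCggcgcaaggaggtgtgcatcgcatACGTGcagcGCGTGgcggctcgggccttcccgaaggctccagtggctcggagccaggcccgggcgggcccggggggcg
P4ha3 (chr7:100285270-100285519, plus strand): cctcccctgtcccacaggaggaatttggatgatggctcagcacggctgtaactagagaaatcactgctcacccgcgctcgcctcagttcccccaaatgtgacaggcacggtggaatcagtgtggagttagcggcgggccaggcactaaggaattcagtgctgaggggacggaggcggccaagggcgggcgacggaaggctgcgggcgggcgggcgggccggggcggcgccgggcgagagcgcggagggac
Col5a3 (chr9:20815068-20815317, minus strand): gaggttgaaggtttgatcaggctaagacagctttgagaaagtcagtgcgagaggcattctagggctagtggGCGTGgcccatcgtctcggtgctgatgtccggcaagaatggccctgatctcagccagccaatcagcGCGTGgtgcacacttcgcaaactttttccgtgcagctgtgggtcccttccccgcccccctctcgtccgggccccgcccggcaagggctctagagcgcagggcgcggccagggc
Col6a2 (chr10:76623631-76623880, minus strand): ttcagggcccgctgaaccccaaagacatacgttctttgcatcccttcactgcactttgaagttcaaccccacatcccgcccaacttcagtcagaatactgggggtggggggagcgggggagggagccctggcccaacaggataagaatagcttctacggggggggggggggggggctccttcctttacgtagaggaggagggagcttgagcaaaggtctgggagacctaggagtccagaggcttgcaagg
Col3a1 (chr1:45311288-45311537, plus strand): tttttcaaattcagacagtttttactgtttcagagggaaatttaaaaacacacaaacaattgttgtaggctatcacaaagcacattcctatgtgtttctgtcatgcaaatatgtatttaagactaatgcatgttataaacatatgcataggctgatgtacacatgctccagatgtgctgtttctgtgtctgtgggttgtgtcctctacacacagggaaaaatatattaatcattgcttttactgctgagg

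The P4ha1 and P4ha2 windows each held 2 GCGTG and 1 ACGTG, the Col5a3 window held 2 GCGTG, and no match to one motif overlapped a match to the other. The RefSeq start of P4ha2 lies 829 bases downstream of its GENCODE start. The windows of P4ha3, Col6a2 and Col3a1 held neither. The windows also differed in base composition, from 70.0% GC in P4ha2 to 35.2% in Col3a1. Of the 10 tested members with such lower values and a window clear of exons, 4 held a motif (Plod1 besides those shown). The share of all promoters holding either motif was not taken, so this count has no matching background. Of the 43 members with a promoter in the RefSeq table, 13 (30.2%) held GCGTG and 9 (20.9%) held ACGTG, beside 28.2% and 16.6% of all 32851 promoters of the same length. Among the 22 members with a promoter in the table that passed the filter on FPKM, 10 (45.5%) held GCGTG and 6 (27.3%) held ACGTG. The share over all genes that passed the filter was not taken, so these 2 shares have no matching background. A match describes letters and does not show binding or which factor would bind.

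Without control replicate 2, the groups did not overlap for 1 of 8 chaperone, oxidase and procollagen protein genes, Lox, which was lower. Of all genes, 19.6% were lower in this way and 17.7% higher. Serpinh1 had FPKM of 518, 1482 and 529 in the controls and 666, 648 and 422 in the PM2.5 libraries. Control replicate 2 was the highest library, PM2.5 replicates 1 and 2 lay above the other controls, and PM2.5 replicate 3 lay below them. The log2 fold change was -0.39 with all libraries and 0.11 without control replicate 2 (limma adjusted p = 0.875 and 0.835). Pcolce followed the same pattern in control replicate 2, with 81.8, 458 and 77.6 against 89.3, 83.1 and 72.3, and its log2 fold change was -0.81 with that library and 0.03 without it. Pcolce overlaps Fbxo24 on the same strand, which limits its count. Bmp1 had 11.9, 16.5 and 10.9 against 11.0, 10.0 and 7.65, and the groups overlapped, with log2 fold changes of -0.41 and, without control replicate 2, -0.25.

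Lox, the founding lysyl oxidase, had FPKM of 101, 80.5 and 100.1 in the controls and 66.4, 67.4 and 90.3 in the PM2.5 libraries, so PM2.5 replicate 3 lay above control replicate 2. Its log2 fold change was -0.33 with all libraries and -0.44 without control replicate 2 (SE 0.163, limma adjusted p = 0.301). Loxl3 had 9.95, 33.4 and 10.0 against 10.5, 10.8 and 7.83, and its log2 fold change of -0.60 with all libraries was -0.05 without control replicate 2. Loxl1 had 40.3, 69.1 and 40.1 against 46.5, 46.6 and 23.8, and log2 fold changes of -0.36 and, without control replicate 2, -0.10. Loxl2 and Loxl4 had log2 fold changes of 0.08 and 0.22 with all libraries and 0.01 and 0.03 without control replicate 2. Among the 5 oxidases, 0 passed the test in either fit, where 0.0926% and 0.993% of all genes were called. Lox alone had an unadjusted limma p under 0.05 without control replicate 2 (0.0421), where 7.63% of all genes were lower and 8.23% higher.

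The library differences within each group moved with the base composition of the members. PM2.5 replicate 3 minus the mean of PM2.5 replicates 1 and 2 fell with GC content over the 31 members (Spearman's rho = -0.859) and over all 11735 genes with a GC value (rho = -0.714), as a description of 1 library in which genes are not independent. Col1a1 (58.9% GC) was 1.17 and Col5a1 (58.0% GC) 1.05 log2 units lower there, while Plod2 (43.0% GC) and Lox (43.9% GC) were 0.43 higher. Control replicate 2 minus the mean of control replicates 1 and 3 had a rho of 0.497 with GC content and -0.458 with gene length over the members. It exceeded 1 log2 unit in either direction in 22.6% of the members and 41.1% of all genes.

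**Figure D4:**
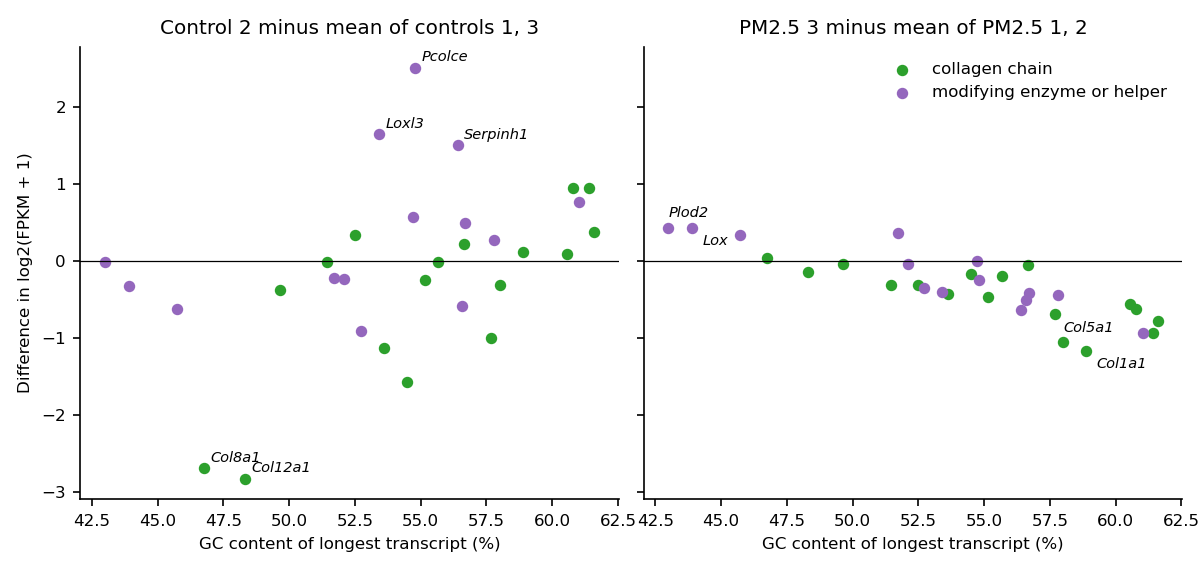
Difference in log2(FPKM + 1) of control replicate 2 from controls 1 and 3 (left) and of PM2.5 replicate 3 from PM2.5 1 and 2 (right) against the GC content (%) of each tested member's longest transcript, with chains in green and enzymes and helpers in purple. On the right the members descend with GC content, from Plod2 and Lox at 0.43 to Col1a1 at -1.17, and on the left they spread between -2.82 (Col12a1) and 2.51 (Pcolce).

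With GC content and gene length corrected for in each library, an alternative chosen after seeing the data, limma without control replicate 2 called 14 of the 31 members, all of them lower, where 3.54% of all genes were called lower and 3.47% higher. The 14 were Plod2, Col6a1, Col6a2, Col1a2, P4ha3, Col3a1, Col12a1, P4ha1, Col8a1, Col5a3, Col6a3, Col4a5, Col4a6 and P4ha2. They hold all 3 type VI chains and all 3 prolyl 4-hydroxylases above the filter. Their corrected log2 fold changes ran from -1.0 (Plod2 and Col6a1) to -0.39 (P4ha2), and all 31 members had a negative value, as did 51.1% of all genes. The smallest were Loxl2 (-0.0072, SE 0.163), Col4a1 (-0.0028, SE 0.0754) and Serpinh1 (-0.00071, SE 0.110), each well inside its standard error. With all 6 libraries the corrected fit called 0 members, where 0.145% of all genes were called, with a smallest member adjusted p of 0.175 (Plod2). Leaving out control replicate 2 and PM2.5 replicate 3 together, 16 members were called lower and 5 higher (Serpinh1, Col5a1, Col4a1, Loxl1 and Loxl4) at a limma adjusted p under 0.05, where 23.6% of all genes were lower and 23.5% higher.

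Genes outside the symbol rule were read from 5 further lists. Among 22 other genes of collagen synthesis and secretion, 18 were tested and 0 passed in either fit. Of the 18, 9 had a negative log2 fold change with all libraries (48.1% of all genes did) and 12 without control replicate 2 (52.0%). Adamts2, which removes the N-terminal propeptide of procollagen, had FPKM of 22.4, 19.7 and 20.5 against 13.3, 13.3 and 9.89, without overlap, and a log2 fold change of -0.74 with all libraries (limma adjusted p = 0.778) and -0.78 without control replicate 2 (SE 0.156, limma adjusted p = 0.119). Fkbp14, a prolyl isomerase of collagen folding, had log2 fold changes of -0.18 and, without control replicate 2, -0.56. In the same order, Pcolce2, a second enhancer of Bmp1, had 0.71 and 0.49, and Adamts14 had 0.11 and 0.34.

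The proteoglycan Bgn, which binds fibrils and was the 1 tested gene of 6 in its list, had FPKM of 122, 68.6 and 122 against 73.0, 75.9 and 80.0, and a log2 fold change of -0.40 with all libraries (limma adjusted p = 0.875) and -0.67 without control replicate 2 (SE 0.0904, limma adjusted p = 0.0564). Of 7 collagen receptors, 3 were tested and 0 passed. Itgb1, the shared beta subunit of the collagen-binding integrins, turned from 0.34 with all libraries to -0.32 without control replicate 2 on the log2 scale, and the receptor kinase Ddr2 turned from 0.12 to -0.16. Ddr1 had -0.03 and -0.01.

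The TGF-beta pathway, a known inducer of collagen genes, had 15 genes tested, of which 0 passed in either fit. With all libraries 13 were positive and 2 negative, with a median of 0.24, and without control replicate 2, 7 were positive and 8 negative, with a median of -0.10, so the sign of the median turned with that library. Of all genes, 48.1% were negative with all libraries and 52.0% without control replicate 2. The inhibitor Skil turned from 0.30 to -0.50. The target Ccn2 had -0.37 and -0.43, and the ligand Tgfb1 had 0.15 and 0.46.

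Of 13 hypoxia-inducible genes, all were tested, and 0 passed with all libraries and 1 without control replicate 2, where 0.993% of all genes did. Car9, a carbonic anhydrase at the cell surface, had FPKM of 17.7, 9.00 and 17.8 in the controls and 5.73, 5.58 and 5.36 in the PM2.5 libraries, without overlap. It fell by 1.52 on the log2 scale without control replicate 2 (SE 0.0849, limma adjusted p = 0.00788), and its log2 fold change with all libraries was -1.21 (adjusted p = 0.629). Of the 13, 8 were negative with all libraries (48.1% of all genes were) and 10 without control replicate 2 (52.0%). Bnip3, a mitophagy receptor, had -0.30 and, without control replicate 2, -0.91, and in the same order Ndrg1 had 0.34 and 0.37 and the prolyl hydroxylase Egln3 had 0.53 and 0.23. The list medians in the plot, without control replicate 2, were -0.41 for the chains and -0.20 for both the hypoxia-inducible genes and the modifying enzymes. With all libraries they were -0.37, -0.24 and -0.36.

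**Figure D5:**
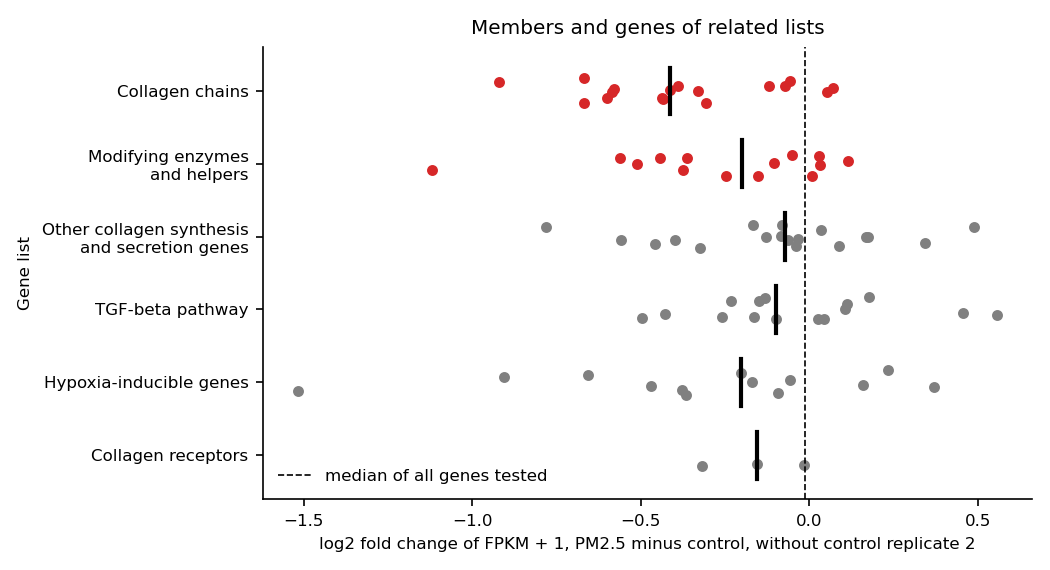
Log2 fold change of FPKM + 1 (PM2.5 minus control, without control replicate 2) of each tested gene by list, with members in red, other genes in grey, a black bar at each list's median and a dashed line at the median of all genes tested (-0.01). The chains have a median of -0.41, and the lowest points are Car9 (-1.52) and Plod2 (-1.12).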

How the data were processed

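RNA of 6 GC-2spd libraries was analysed, 3 control and 3 PM2.5, grouped by the sample labels. Per the labels, libraries were made with the NEBNext Ultra kit and read as paired ends on an Illumina Novaseq. The submitters' processing notes list HISAT2 2.0.5, featureCounts 1.5.0-p3 and the build mm9. The authors deposited FPKM per Ensembl gene. Symbols, positions and exon lengths were taken from GENCODE M21 on GRCm38, as the files hold no coordinates. FPKM times exon length gave whole reads (within 0.05) for 98.1% to 98.4% of values under 50 reads, and from these came the depth. A count of 3 reads was taken as the detection floor, for counting error alone.

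Genes whose FPKM averaged 1 or more were tested on log2(FPKM + 1) with limma 3.58.1 (trend and robust options, statmod 1.5.0, R 4.3.3), with Benjamini-Hochberg adjustment over all 11884 genes and a call at an adjusted p under 0.05. A fold change on this scale understates the change of low genes. The script was tested on simulated data. Members, lists and alternatives were chosen with earlier results of these data known. Members were named in full if among the 8 highest means, the 8 largest rises or falls with all libraries, the 5 largest in each direction without control replicate 2, called, or next to the filter. Other members were added after their values were seen. Of other lists, the 2 genes with the largest change each way without control replicate 2 were named, or every tested gene of a list of 3 or fewer. One gene of the TGF-beta list that this rule names is not reported here. Alternatives were other pseudocounts, filters, scalings, thresholds, voom, a replicate block, each library left out, and splines of 5 degrees of freedom on GC content and gene length. Figures were drawn with matplotlib 3.10.9.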

Additional observations from a re-analysis of the deposited data

How the results depend on the processing

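With all libraries, 11 genes were called, against 0 without a filter (875 at an unadjusted p under 0.05), 0 at a mean FPKM of 5 or more (254), 1 with equal FPKM totals (higher, where the 11 were 4 higher and 7 lower), 0 by voom (395), 17 after the GC and length correction (6 higher and 11 lower), and 0 to 118 when each library was left out. Members called were 0 there, and 0 to 1 when each library was left out. Without control replicate 2, the 118 genes called (34 higher, 84 lower) became 54 without a filter, 823 after the correction (407 higher, 416 lower), and 0 to 5602 when each further library was left out, 5602 without PM2.5 replicate 3. The lone control left in 2 of those fits was assumed to vary like the other libraries. The 1 member called became 0 without a filter, 2 by voom, 14 after the correction, 0 with an absolute log2 fold change above 1 required, and 0 to 21 when each further library was left out. The members' median of -0.36 became -0.058 without a filter, which adds members near 0 reads. The causes of the other differences were not tested. Same-numbered libraries correlated at -0.285, 0.180 and 0.253 in their deviations from the group means, and differently numbered ones at -0.280 to 0.292. With 1 library of each group standing apart, these correlations cannot decide whether the numbers pair libraries. A replicate block called 0 genes with all libraries (335 at an unadjusted p under 0.05) and, without control replicate 2, 92 genes (28 higher, 64 lower) and 0 members. Equal FPKM totals moved the median of all genes to 0.26 with all libraries, where 23 of 31 members lay below it and Col4a6, Col5a2, Plod1 and Plod3 changed sign, and voom moved it to 0.17, where 24 did. With 3 libraries a group and 1 of each group standing apart, changes of the size of most members could not be resolved.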

Other observations

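The 27 members below the filter were not tested, and their recovered reads are given as values. All 7 members with under 3 reads in every library are chains, among them the cartilage chains Col9a1 and Col9a2, which were listed at 0 in all libraries together with Col13a1, Col19a1 and Col26a1. Col15a1, a basement membrane collagen related to Col18a1, had 142, 18 and 143 reads in the controls and 63, 42 and 50 in the PM2.5 libraries, so control replicate 2 was the lowest. Col11a1, a minor chain of cartilage fibrils, had 224, 68 and 231 reads against 148, 109 and 124. Col8a2, the partner chain of Col8a1, had 13, 11 and 15 reads against 6, 5 and 4, and these groups did not overlap. Col6a4 went the other way at a very low level, with 2, 1 and 1 reads against 8, 10 and 5. So did Col17a1, with 6, 6 and 4 reads against 13, 7 and 7, although its groups overlapped in FPKM. Col10a1 had 5, 0 and 2 reads against 5, 5 and 11, and was higher in FPKM in every PM2.5 library. Col11a2 had 143 reads in control replicate 2 and 17 to 27 in the other libraries, and Col7a1 had 408 there and 84 to 145 in the others.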
